A study of Homo sapiens with 4 samples.

Results

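The EPB41 relatives and the ERM proteins are membrane-skeleton genes, described here in MDA-231, a line of human breast cancer cells, after transfection with a TARBP2 plasmid or a GFP plasmid. The set comprises 7 EPB41 genes and the 3 ERM genes EZR, RDX and MSN. It was chosen by the TARBP2 minus GFP difference of EPB41L3 in these same arrays, the largest fall among named genes, and then filled up by gene name. They are 10 of the 16171 genes that could be tied to a probe in the whole series, except that EPB41L5 could not be tied. The other 9 genes were read by 15 probes.

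RNA was taken 48 hours after transient transfection with a plasmid carrying TARBP2, a double-stranded RNA-binding partner of DICER1, behind the CMV promoter, and compared with a plasmid carrying GFP behind the same promoter. Each group had 2 Illumina BeadChip arrays. Mock transfection is the control in the design text, but each control sample is labelled with the GFP plasmid and is called GFP here. Both groups share the cell line and the transfection reagent, and the labels give neither the share of cells that took up a plasmid nor whether replicates were separate cultures, so the tests cover only array-to-array spread, which may be technical. In such bulk RNA, fewer cells of a type and less RNA per cell cannot be told apart.

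Proteins of the EPB41 family tie the spectrin and actin network under the plasma membrane to membrane proteins. They bind these through a FERM domain, a clover-shaped fold that also opens ezrin, radixin and moesin. The ERM proteins switch between a closed form and an open form that links actin filaments to receptors such as CD44, and are best known from microvilli and the cell cortex. EPB41L3, also called DAL1, is known as a growth suppressor that is lost in lung tumours, often with methylation of its promoter, and in meningiomas.

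The promoters of EPB41L3 and of the 3 ERM genes are shown because the set was built on EPB41L3 and because the ERM genes are a family of their own within it. Each holds 250 bases before to 50 bases after the RefSeq start on GRCh38.p14, printed 5′ to 3′. That start need not be the one used in these cells. Capitals mark the GC box, searched as GGGCGG and CCGCCC, which is the same motif on the other strand, with overlapping matches counted separately.
EPB41L3, chr18:5628942-5629241, minus strand: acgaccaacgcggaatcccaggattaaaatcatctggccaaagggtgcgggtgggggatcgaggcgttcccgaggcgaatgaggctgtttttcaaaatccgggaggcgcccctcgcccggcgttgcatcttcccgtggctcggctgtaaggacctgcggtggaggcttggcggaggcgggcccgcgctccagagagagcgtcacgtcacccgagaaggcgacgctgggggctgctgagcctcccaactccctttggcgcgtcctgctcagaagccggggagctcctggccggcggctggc
EZR, chr6:158818186-158818485, minus strand: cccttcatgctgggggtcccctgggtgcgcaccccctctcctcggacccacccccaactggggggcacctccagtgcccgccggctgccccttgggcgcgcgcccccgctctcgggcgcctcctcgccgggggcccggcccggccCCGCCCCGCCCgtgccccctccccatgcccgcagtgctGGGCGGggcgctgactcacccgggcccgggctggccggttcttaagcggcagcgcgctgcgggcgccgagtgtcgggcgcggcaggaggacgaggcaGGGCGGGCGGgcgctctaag
RDX, chr11:110296565-110296864, minus strand: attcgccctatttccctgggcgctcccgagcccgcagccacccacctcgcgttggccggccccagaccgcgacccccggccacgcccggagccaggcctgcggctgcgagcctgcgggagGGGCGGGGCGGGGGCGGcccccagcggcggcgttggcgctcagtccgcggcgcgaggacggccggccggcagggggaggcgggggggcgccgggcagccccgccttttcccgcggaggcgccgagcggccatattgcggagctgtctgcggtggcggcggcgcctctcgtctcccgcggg
MSN, chrX:65588127-65588426, plus strand: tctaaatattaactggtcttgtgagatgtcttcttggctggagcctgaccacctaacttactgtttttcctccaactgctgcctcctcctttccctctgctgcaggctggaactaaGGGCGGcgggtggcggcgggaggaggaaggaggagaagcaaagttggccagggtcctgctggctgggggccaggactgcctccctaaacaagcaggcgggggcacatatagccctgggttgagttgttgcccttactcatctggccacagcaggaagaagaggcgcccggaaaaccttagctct

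No GC box lay in the EPB41L3 window, while 5 lay in that of EZR, 3 in that of RDX and 1 in that of MSN. Among 35116 RefSeq promoters of this length, 45% hold at least 1, as do 7 of the 9 members whose promoter was found. The EPB41L3 window held 30 CG dinucleotides, against a median of 14 over all promoters, and 22.4% of promoters held as many or more. The windows of EZR and RDX held 36 and 46 CG dinucleotides and that of MSN held 7. These matches describe the sequence only.

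The transfected gene and the line were checked first. TARBP2 was 257-fold higher on the TARBP2 arrays by 1 probe (adjusted p = 4.79e-05, limma), while its other probe had a log2 change of -0.22 (adjusted p = 0.0722). Median raw intensities lay between 74.5 and 78.7 and between 44.1% and 45.9% of probes were detected per array. Of 7 markers of a mesenchymal-like breast line with a probe, 6 were detected, among them CD44 and AXL, and SPARC was not. None of the 6 was called higher, AXL and CD59 were lower, and the list summed to 19900 on both TARBP2 arrays and to 23000 to 23900 on the GFP arrays. ESR1, PGR and TFF1, luminal markers, were not above background on any array. Of the 7 luminal markers detected 2 were higher and 4 lower, against 24.8% and 23.4% of all genes read by their brightest detected probe. CDH1, FOXA1 and KRT18 passed the detection filter only through the GFP arrays, with bounds of at least 1.14-fold, 5.79-fold and 1.06-fold lower. GATA3 passed it only through the TARBP2 arrays, at least 1.13-fold higher, so nothing is read from these counts. KRT19 fell 2.37-fold and XBP1 rose 1.42-fold. The 11 luminal markers with a probe, detected or not, had a summed normalized intensity of 6920 to 7180 on the TARBP2 arrays and 6900 to 7090 on the GFP arrays. Of 6 leukocyte markers with a probe only CD14 was detected, and it rose 3.90-fold, with sums of 708 to 737 against 272 to 297. Of 5 fibroblast markers DCN fell 4.89-fold, and PDGFRB, undetected with GFP, was at least 1.34-fold higher. COL1A1, COL3A1 and THY1 were not above background, and the sums of the 5 were 240 to 263 against 721 to 757. All 6 red cell markers, with sums of 141 to 147 against 150 to 155, and 4 of 5 endothelial markers, with sums of 131 to 132 against 138 to 149, failed the detection filter. The part of these markers in the results below was not tested.

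EPB41L3 was bright on the GFP arrays and not above background on the TARBP2 arrays. Its probe, ILMN_2109197, read 62.4 and 64.6 with TARBP2 and 2787.2 and 3062.6 with GFP as raw intensity. The detection p, the share of background probes at least as bright, was 0.5 and 0.375 on the TARBP2 arrays and 0 on both GFP arrays. After background correction and quantile normalization its log2 level was 4.61 ± 0.05 on the TARBP2 arrays and 11.47 ± 0.07 on the GFP arrays (SD, n = 2 each). The groups thus lay far apart, and EPB41L3 was at least 86.3-fold lower, a bound set by the lowest level detected on each TARBP2 array.

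Because the set was built around this fall, no test is given for EPB41L3. Its fitted log2 difference of -6.86 rests on TARBP2 readings at background and is no more than a description beside the bound. The authors' deposited table gives EPB41L3 a log ratio of -4.23 and puts it in the down-regulated class. In the authors' deposited table EPB41L2, EZR at -0.721, MSN at -0.453 and the brighter EPB41L4B probe at -0.434 are also in that class, and the other members are in the background class. That log ratio is a difference of scaled inverse hyperbolic sines of intensity, which shrinks changes that end near background. Without background correction the log2 difference was -5.47.

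**Figure D1:**
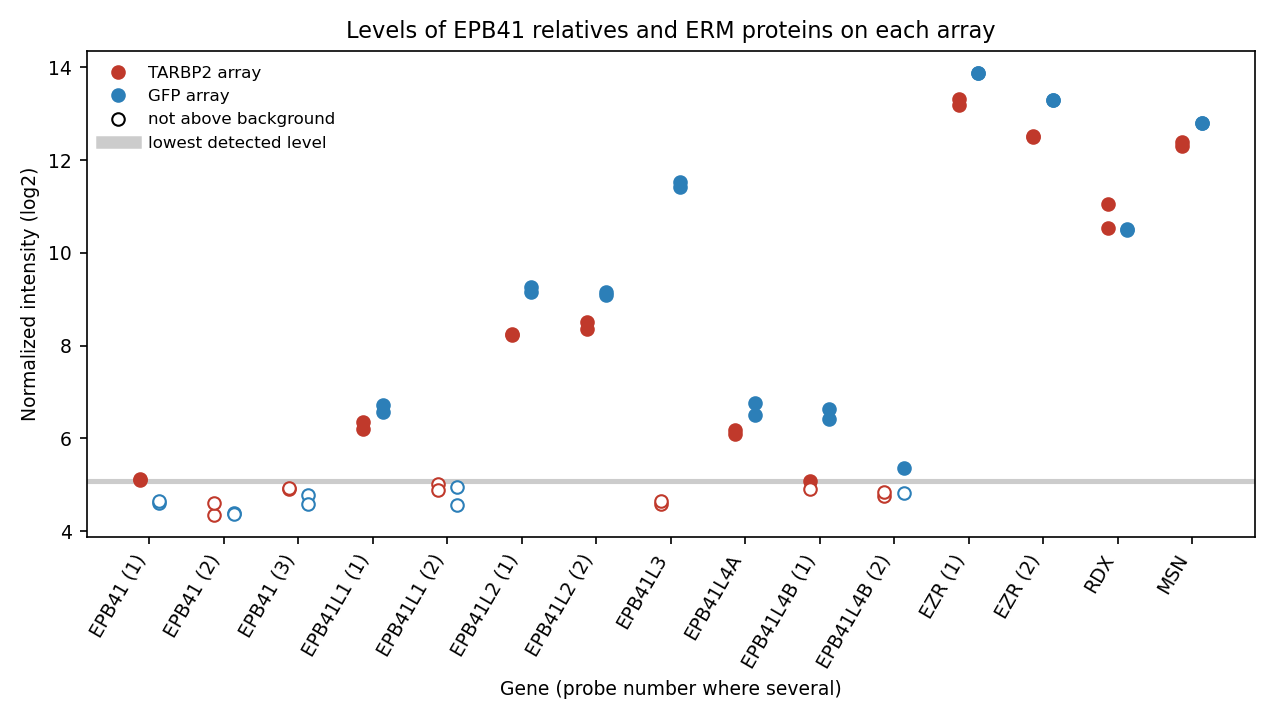
Normalized log2 intensity (vertical axis) of each of the 15 probes of the family (horizontal axis) on the 2 TARBP2 and 2 GFP arrays, with open circles where a probe was not above background and a grey band at the lowest detected level. EPB41L3 drops from 11.42 and 11.53 on the GFP arrays to 4.58 and 4.65, while the EZR, RDX and MSN probes stay above 10 on all arrays.

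**Figure D2:**
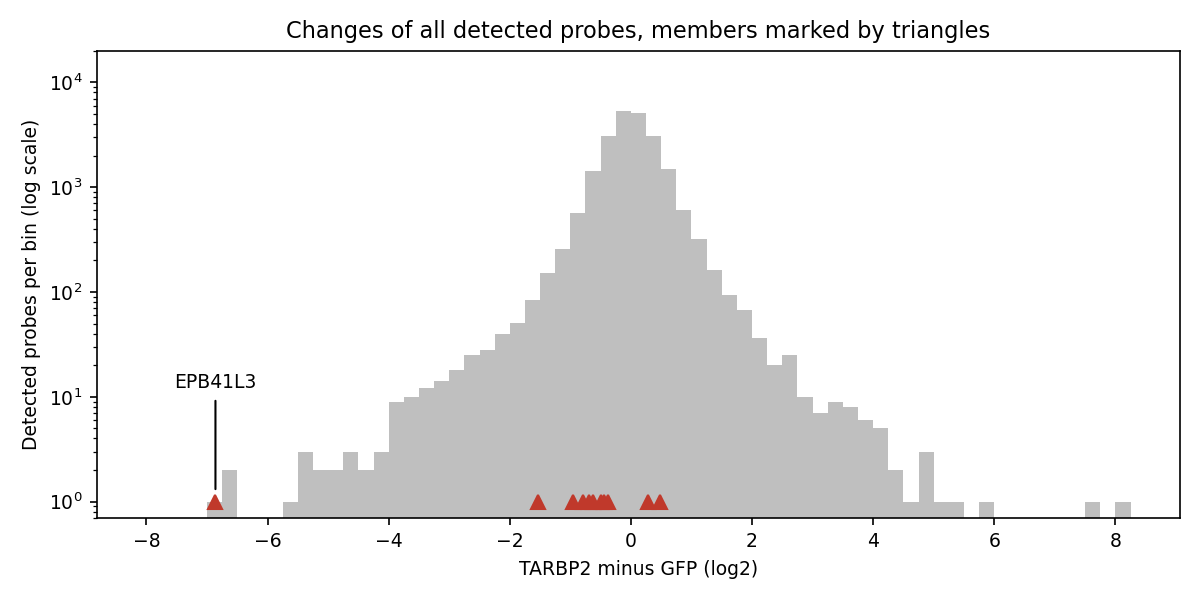
Number of detected probes (vertical axis, log scale) by log2 difference of TARBP2 minus GFP (horizontal axis, bins of 0.25), with triangles for the 11 detected probes of the family. The EPB41L3 probe, which chose the set, lies at a fitted -6.86, and the fitted values of the other members lie between -1.53 and 0.48.

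Of the 15 probes, 11 passed the filter of a detection p under 0.05 on at least 2 arrays, and these read 9 genes. EPB41 passed only through the TARBP2 arrays and EPB41L3 only through the GFP arrays. EPB41L4B was detected on both GFP arrays and 1 of the 2 TARBP2 arrays. Of the 10 detected probes other than EPB41L3, 8 were lower on the TARBP2 arrays and 1 was higher at an adjusted p under 0.05 (limma, 2-sided, Benjamini-Hochberg over 22123 probes), where 40.3% of all detected probes were called, 19.8% lower and 20.5% higher. On the normalized scale all 8 probes called lower had groups that did not overlap, as did EPB41 and RDX among those that were higher. Of all detected probes 71.7% had groups that did not overlap, 35.6% downward and 36.1% upward. The median log2 change of the 11 probes was -0.63, against 0.0 over all detected probes. The 1 probe called higher was that of EPB41, which had passed the filter only where it was high. Since the contrast also chose the set, nothing is read from these counts, shares or the median. The count of 8 lower probes became 5 without TARBP2 replicate 2 and 5 without GFP replicate 2.

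EPB41L2, the most widely expressed EPB41 relative, fell by both of its probes. On the first, ILMN_2069128, the TARBP2 arrays read 348.8 and 357.3 in raw intensity and the GFP arrays 614.3 and 675.1. On the second, ILMN_1805448, they read 372.1 and 413.1 against 592.8 and 624.5. Each TARBP2 array was below each GFP array on both probes. The log2 changes were -0.96 ± 0.08 and -0.69 ± 0.09 (SE, n = 2 arrays per group), with adjusted p of 0.00181 and 0.00553. These 2 probes were named through a pair whose mean matched the authors' deposited log ratio of -0.619.

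EPB41L4B, also called EHM2 or LULU2, a relative that acts at cell junctions, fell by its brighter probe. The TARBP2 arrays read 80.8 and 74.5, of which only the first was above background, and the GFP arrays 135.1 and 151.1. The fitted log2 change, which includes the TARBP2 reading at background, was -1.53 ± 0.11 (SE), with an adjusted p of 0.00136. The size of this change depended on the background step, as it was -0.84 without background correction and -0.94 with an offset of 50. The other EPB41L4B probe failed the filter, with raw readings of 70.0 and 72.5 against 75.4 and 91.7.

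EPB41L4A and EPB41L1 were dim and showed small falls that did not survive every removal of an array. EPB41L4A, a relative known from epithelial cells, read 121.5 and 116.2 with TARBP2 and 140.1 and 160.6 with GFP. Its log2 change was -0.50 ± 0.11 (SE, adjusted p = 0.0259). It did not pass without TARBP2 replicate 1 (adjusted p = 0.0896), TARBP2 replicate 2 (0.123) or GFP replicate 2 (0.081). EPB41L1, the form typical of neurons, read 130.7 and 121.3 against 144.1 and 158.1. Its log2 change was -0.38 ± 0.10 (SE, adjusted p = 0.0411), and it did not pass without any 1 of the 4 arrays (adjusted p between 0.065 and 0.159). Without background correction the log2 changes of EPB41L4A and EPB41L1 were -0.31 and -0.24. A second EPB41L1 probe was not above background on any array.

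EPB41, the founding member, from the red cell skeleton, was near background throughout. Its only detected probe read 81.4 and 81.0 on the TARBP2 arrays, at detection p of 0.0403 and 0.039, and 67.7 and 69.3 on the GFP arrays, where it was not above background. The groups did not overlap, but the bound on the fold was only at least 1.02. Because this probe passed the filter through the TARBP2 arrays alone, its difference is given by that bound, with no p as support. With an intensity trend in the prior variance it was not called (adjusted p = 0.0758). The other 2 EPB41 probes were not above background on any array. For EPB41L5, also called LULU, the authors' deposited table gives a log ratio of -0.0118, and 2 pairs of probes matched it equally, so no level is given.

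Among the ERM genes, EZR and MSN fell and RDX did not pass the test. EZR, which encodes ezrin of epithelial microvilli, read 5911.5 and 5903.1 with TARBP2 and 10065.7 and 10159.2 with GFP by ILMN_1795937. By ILMN_3272378 it read 10020.7 and 9310.0 against 14931.3 and 15292.3. Both probes separated the groups. Their log2 changes were -0.79 ± 0.07 and -0.63 ± 0.08 (SE), or 1.72-fold and 1.55-fold lower, with adjusted p of 0.0023 and 0.00563.

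MSN, which encodes moesin, read 5335.6 and 5116.4 with TARBP2 and 7142.3 and 7215.7 with GFP. The groups did not overlap and the log2 change was -0.45 ± 0.08 (SE, adjusted p = 0.0117). MSN did not pass without TARBP2 replicate 2 (adjusted p = 0.0617), GFP replicate 1 (0.0531) or GFP replicate 2 (0.0516), although its change lay between -0.41 and -0.49 whichever array was left out.

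RDX, which encodes radixin, rested on a single array. It read 2148.4 and 1534.3 with TARBP2 and 1482.9 and 1536.7 with GFP, so that the second TARBP2 array lay among the GFP arrays in raw intensity. The log2 change was 0.29 ± 0.18 (SE, adjusted p = 0.266). Without TARBP2 replicate 1 it was 0.03 (adjusted p = 0.825), and without TARBP2 replicate 2 it was 0.55 (adjusted p = 0.0404). The difference between RDX and the other ERM genes was not tested.

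**Figure D3:**
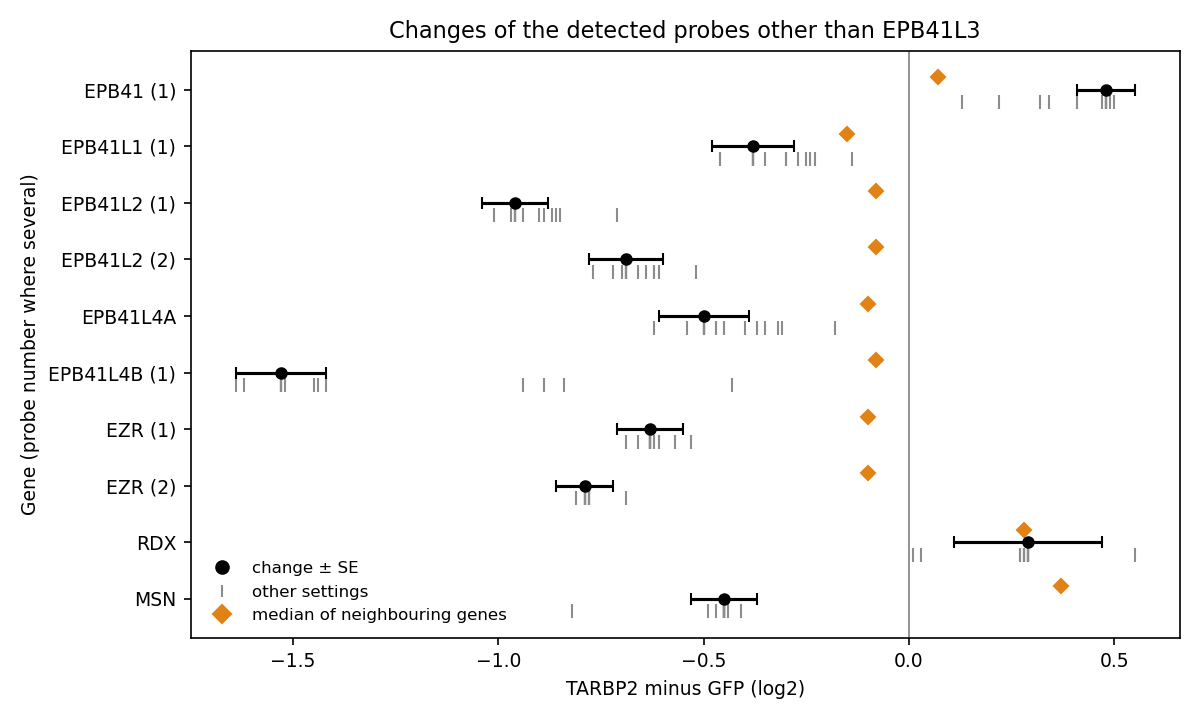
Log2 change of TARBP2 minus GFP (horizontal axis) for the 10 detected probes other than EPB41L3 (vertical axis), with black points and bars for the change and its SE, grey ticks for the other processing settings and left-out arrays, and diamonds for the median of neighbouring genes. The ticks include a setting on the inverse hyperbolic sine scale, which is not plain log2, and a setting with the median of neighbouring genes removed. Over all ticks the EPB41L2 and EZR probes stay between -1.01 and -0.52, and the RDX ticks reach from 0.01 to 0.55. The EPB41L4B ticks range from -1.64 to -0.43, but -0.43 is on the inverse hyperbolic sine scale. The smallest log2 change of EPB41L4B is -0.84, without background correction.

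The neighbours of each member were read for comparison, among detected genes with a symbol. Of 22123 detected probes only 11026 had a symbol, so an unnamed gene may lie nearer. Of all 9648 detected genes with a symbol, each read by its brightest detected probe, 24.8% were called higher and 23.4% lower. Within the 41 such genes around EPB41L3 on chromosome 18 the median log2 change was 0.01, with 8 called higher and 9 lower. The nearest of them on one side, ZBTB14, had a change of -0.06 (adjusted p = 0.682), and the nearest on the other, ARHGAP28, fell by 2.14 (adjusted p = 0.00048). Around MSN on chromosome X the median of 50 genes was 0.37, with 27 called higher and 3 lower, and MSN had a change of -0.82 relative to that median. Around RDX on chromosome 11 the median was 0.28, and RDX had a change of 0.01 relative to it. The medians around the other members lay between -0.15 and 0.13. EPB41L4B lies beside PTPN3, a phosphatase with a FERM domain, which rose by 0.59 ± 0.07 (SE, adjusted p = 0.00518) while EPB41L4B fell.

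Genes that work with the family were read from 5 lists, each gene by its brightest detected probe. Among all 9648 genes so read, 24.8% were called higher and 23.4% lower, with a median log2 change of 0.0. These lists, like the members, were chosen with earlier results of the data known. Among the genes called, ANK1, FRMPD4 and CADM1 passed the filter only through the GFP arrays, and MPP2 and L1CAM only through the TARBP2 arrays. Nothing is therefore read from the counts or medians of the lists.

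In the spectrin and actin skeleton, the membrane anchors GYPC and STOM fell most. GYPC, glycophorin C, which holds EPB41 at the red cell membrane, had log2 levels of 6.37 and 6.44 with TARBP2 and 10.23 and 10.20 with GFP. It fell 14.0-fold (log2 change -3.81 ± 0.08, SE, adjusted p = 7.57e-05), and its other probe had a log2 change of -3.27. STOM, stomatin of the membrane raft, fell 3.50-fold, and its other probe had a log2 change of -0.83. DMTN, dematin, an actin bundler, rose 2.01-fold, and ADD3, the gamma chain of adducin, rose 1.79-fold with all 3 of its detected probes higher. SPTAN1, the alpha spectrin of non-red cells, had a log2 change of -0.55 (adjusted p = 0.00763), and SPTBN1, its beta partner, one of -0.33 (adjusted p = 0.06). Both spectrins were named after their values were seen. Of 14 detected genes 2 rose and 5 fell, with a median of -0.12.

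Of membrane and scaffold partners of the EPB41 relatives, CADM1 fell most. CADM1, a cell adhesion molecule whose tail binds EPB41L3, had log2 levels of 4.84 and 4.67 on the TARBP2 arrays, not above background, and 7.93 and 7.97 on the GFP arrays. CADM1 was at least 7.49-fold lower, with no p as support because it passed the filter through the GFP arrays alone. CASK, a scaffold kinase of cell junctions, rose 1.65-fold, and MPP2, a related scaffold undetected with GFP, was higher by at least 1.64-fold. PALS1, a polarity scaffold, fell 1.59-fold. PRMT3 and PRMT5, arginine methyltransferases that bind EPB41L3 and were named after their values were seen, had log2 changes of 0.04 and -0.04 (adjusted p = 0.702 and 0.742). Of 10 detected genes 3 rose and 2 fell, with a median of 0.0.

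Other proteins with a FERM domain moved both ways. FRMD3 fell 8.41-fold from log2 levels of 9.08 and 9.09 to 6.19 and 5.84 (adjusted p = 0.000383). FRMPD4, undetected with TARBP2, was lower by at least 3.11-fold. FARP1 fell 1.76-fold, while a dimmer FARP1 probe had a difference of 0.10 in log2 units (adjusted p = 0.819). FERMT3, the kindlin of blood cells, rose 2.82-fold. Of 17 detected genes 4 rose and 6 fell, with a median of -0.07.

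Among the detected regulators of ERM proteins, PPP1CB fell most. PPP1CB, a catalytic subunit of protein phosphatase 1, fell 2.40-fold, and PRKCA, a protein kinase C, fell 2.03-fold. CDC42BPA and CDC42BPB, kinases of the CDC42 pathway that phosphorylate ERM proteins, fell 1.75-fold and 1.58-fold. A dimmer PPP1CB probe had a log2 change of -0.33 (adjusted p = 0.0365). These 4 genes had adjusted p between 0.000958 and 0.00403. Of 12 detected genes 1 rose and 6 fell, with a median of -0.32, where 24.8% of all genes so read were called higher and 23.4% lower.

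Among membrane partners of the ERM proteins, 5 of 10 detected genes were called, where 24.8% of all genes so read were called higher and 23.4% lower. L1CAM, 1 of these 5, was detected only on the TARBP2 arrays, where it was high, so its call is no support. SDC2, a syndecan, fell 1.71-fold (adjusted p = 0.00524), NHERF2, an ERM-binding scaffold, had a log2 change of -0.57, ICAM2 one of 0.39, and L1CAM was at least 1.16-fold higher. Each of the last 3 failed to pass after the removal of single arrays, with adjusted p of up to 0.0931, 0.0962 and 0.0653. CD44, the hyaluronan receptor, named after its value was seen, had log2 levels between 13.31 and 13.39 on all 4 arrays (adjusted p = 0.855). Of 10 detected genes 2 rose and 3 fell, with a median of 0.04.

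**Figure D4:**
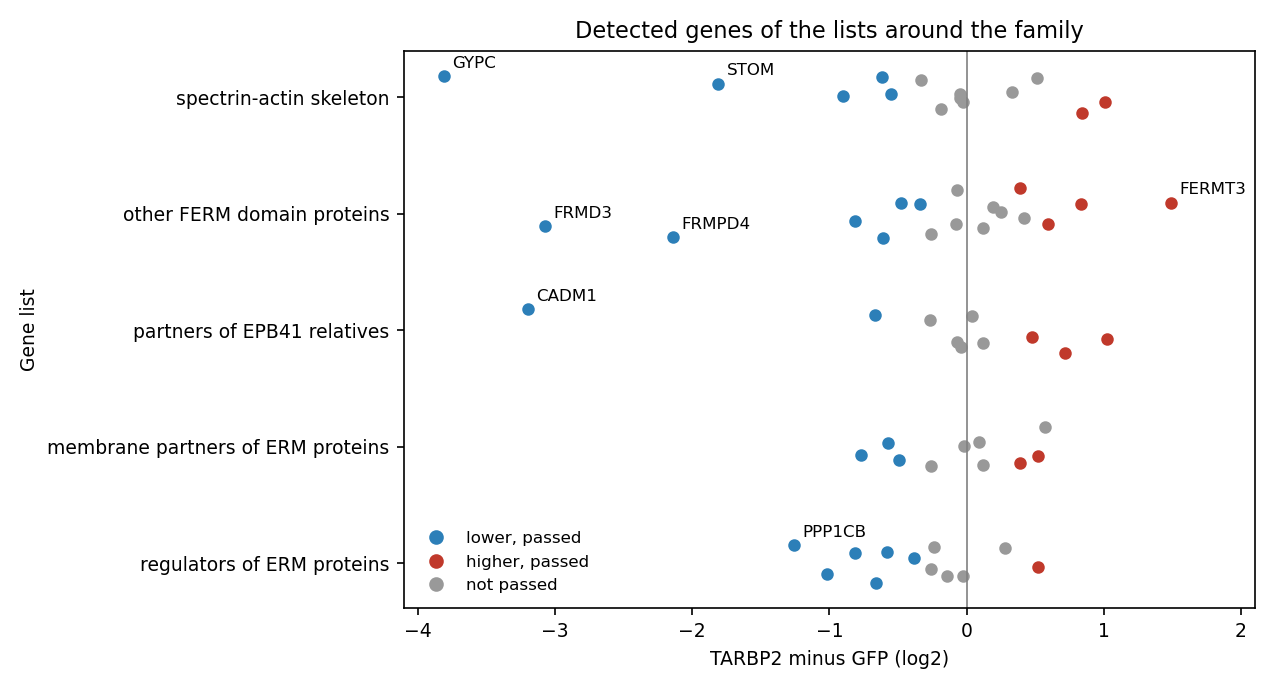
Log2 change of TARBP2 minus GFP (horizontal axis) for each detected gene of the 5 lists (vertical axis), blue where lower and red where higher at an adjusted p under 0.05, and grey otherwise. GYPC at -3.81, CADM1 at a fitted -3.20 and FRMD3 at -3.07 lie apart from the remaining genes, which lie between a fitted -2.14 (FRMPD4) and 1.49. ANK1, FRMPD4 and CADM1 passed the filter only through the GFP arrays, and MPP2 and L1CAM only through the TARBP2 arrays. The colours of these genes are therefore no support.

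The named genes whose profile over the 4 arrays lay nearest to EPB41L3 were STXBP6, MMP1, AGR2, TMEM98 and MAGEC1. Likeness was the Euclidean distance between log2 profiles centred on their own means, and it ran from 1.30 to 1.62. Of these, only MMP1, interstitial collagenase, was detected on the TARBP2 arrays. The other 4 profiles, like that of EPB41L3, rest on TARBP2 readings at background, so these distances describe fitted values only.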

How the data were processed

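Total RNA from 4 samples of MDA-231 cells was read on Illumina BeadChips with 47323 probes. The deposited non-normalized intensity is a mean bead brightness on a linear scale, with a deposited detection p-value per probe, per the file headers. A further table holds intensities the authors had quantile-normalized. The submitters' processing notes name lumi without a version. Per the file headers, a deposited table of the authors' comparison gives each accession a log ratio, whose base is not stated, and a class score.

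No probe annotation was used. Accessions were tied to probes where the deposited log ratio equalled, within 1e-09, the difference of group means of 1 fitted curve, a scaled inverse hyperbolic sine, applied to those normalized intensities. The deposited log ratio is therefore not a plain log2 difference, although 1 log2 unit is worth 1.049 of it at high intensity. This tied 33114 of 39747 accessions, against 13 in a shifted table. A further 832 were tied to a pair of probes within 7e-10, where under 0.02 chance pairs were to be found, and 5801 were not tied. On simulated data 99.99% of single ties and 365 of 365 pairs were right. RefSeq (GRCh38.p14) gave symbols to 18550 probes. Of 14 accessions of the family 13 were tied. A probe's sequence was not seen, so whether a probe also reads a relative could not be checked.

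Intensities were corrected by normexp, given an offset of 16, normalized by quantiles and logged to base 2 (neqc, limma 3.58.1, R 4.3.3). Probes with detection p under 0.05 on at least 2 arrays were tested by lmFit and eBayes, with 2 residual and 2.81 prior degrees of freedom. A fold against a group at background is the bright group's mean over, per dim array, whichever is higher, the probe's own level or the lowest level detected there. Windows hold up to 25 detected genes with a symbol on each side by RefSeq order. Named genes are the members, TARBP2, up to 4 genes of smallest p per list and the 5 nearest profiles of EPB41L3 and of the member with the largest fitted rise. Members and lists were chosen with earlier results of these data known. The number of arrays limits the precision. Alternatives were other offsets, background steps, normalizations and filters, 1 probe per gene, a trend in the prior variance, a replicate block, left-out arrays, window medians removed and single ties only.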

Additional observations from a re-analysis of the deposited data

How the results depend on the processing

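Both EPB41L2 probes and both EZR probes kept their direction and passed under every alternative in which they were tested. The same held for the EPB41L4B probe, but detection on all 4 arrays removed it, since only 1 TARBP2 reading was above background. The log2 difference of EPB41L3 lay between -6.91 and -5.47. On the inverse hyperbolic sine scale, which is not plain log2, its difference was -4.23. Across the array, 4535 probes were called higher and 4382 lower, against 2717 and 2634 with 1 probe per gene and 2804 and 2813 with window medians removed, both of which test fewer probes. Leaving out 1 array gave 2316 to 3054 higher and 2279 to 2761 lower. Of family probes other than EPB41L3, 1 to 2 were then higher and 5 to 6 lower. Detection on all 4 arrays left 0 family probes higher, since EPB41 drops out, and 7 lower, since EPB41L4B drops out. Single ties left 4 lower, since EPB41L2 and EZR drop out. With a replicate block 4126 probes were higher and 3941 lower, with 7 family probes lower, as EPB41L1 did not pass (adjusted p = 0.07). Same-numbered arrays did not deviate together (correlation 0.006), so the numbers were not taken as pairs. EPB41L1 also did not pass with median scaling, without a detection filter or with window medians removed (adjusted p = 0.0515, 0.0686 and 0.101). EPB41 did not pass on the inverse hyperbolic sine scale (adjusted p = 0.052), where RDX did (0.0355), as it did with an intensity trend (0.0387). APOO turned to -0.12 with window medians removed. The causes were not tested. Signal near background limits EPB41, EPB41L1, EPB41L4A and EPB41L4B.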

Other observations

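EPB41 had the highest fitted log2 difference of the members, but its GFP readings were not above background and its bound was only at least 1.02-fold, so its rise cannot be ranked against that of RDX. The genes whose fitted profiles over the 4 arrays lay nearest to it were GPX4, a peroxidase of membrane lipids, SLC25A34, ARHGAP27, APOO and CDCA7, at distances of 0.01 to 0.02 between centred log2 profiles. Their log2 changes were 0.47 to 0.49. GPX4 had log2 levels of 12.96 and 12.97 with TARBP2 and 12.48 and 12.51 with GFP, while SLC25A34, like EPB41, was not above background on the GFP arrays.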
